A study of Mus musculus with 6 samples.

Results

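The tetraspanin family was examined in mouse iECDCs, a line of immortalized epicardium cardiosphere-derived cells. By the methods of the study, the cells came from the ventricle epicardium of adult C57BL/6 mice. A telomerase transgene (hTERT) keeps the line dividing. Members were the protein-coding genes of the deposited table named Tspan with a number, together with Cd9, Cd37, Cd53, Cd63, Cd81, Cd82, Cd151 and Upk1a, which gave 28 of 54532 genes. The members were chosen by name alone, but the family itself was selected on its read counts and fold changes between the induced and control libraries, which were already known. The values of that contrast are therefore a description and support nothing about the family.

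RNA was sequenced from 3 control libraries of cells at passage 30 and from 3 induced libraries of cells at the same passage. The induced cells had received 10 µM 5-aza (5-azacytidine, which blocks the methylation of DNA and is given to push cells toward a cardiac fate) for 3 days and, by the sample labels, had then been kept for 4 weeks in IMDM with 2% FBS. The methods of the study instead describe a shorter culture in low-glucose DMEM for induced cells that were stained, and which protocol the sequenced cells followed is not settled here. Both groups carry the hTERT transgene under a CMV promoter and come from 1 line selected with puromycin. The labels do not state the medium or culture time of the control cells, and the methods give IMDM with more serum (complete explant medium) as the routine medium of the line, so drug, serum and time in culture cannot be told apart. The labels call the samples of a group separate but do not say whether they were separate cultures, and the errors below cover only the spread between these libraries.

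Tetraspanins are small proteins that pass through the membrane several times and gather partner proteins, among them integrins, immunoglobulin-like receptors and proteases, into patches of the membrane. CD9, CD63, CD81 and CD82 are carried on extracellular vesicles and are commonly used to detect them, and vesicles of cardiosphere-derived cells are studied for their effects on the injured heart. CD151 holds laminin-binding integrins, the TspanC8 subgroup escorts the protease ADAM10 to the cell surface, and CD37 and CD53 belong to blood cells.

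Total counts were 19041133 to 19823369 reads per library. A level is given as CPM, a read count relative to library size after TMM scaling, or, where genes are compared with each other, as the deposited FPKM, which also corrects for gene length. A gene was called when edgeR's quasi-likelihood test, fitted over all 14246 genes with enough reads, gave a Benjamini-Hochberg adjusted p under 0.05. Of the markers of cardiosphere-derived cells, all 8 had reads in every library, with Eng at 359.9 ± 0.329 and 392 ± 13.0 CPM and Thy1 at 113 ± 2.04 and 164 ± 9.57 CPM in control and induced cells (SD, n = 3). Eng, Thy1, Gata4 and Upk3b were called higher, by 0.12, 0.54, 0.59 and 1.89 on the log2 scale. Pdgfra, Ly6a, Col1a1 and Tbx18 were called lower, by 0.73, 0.57, 0.36 and 0.33. The list summed to 8503 to 8860 CPM in control and 7474 to 8117 CPM in induced libraries, without overlap. Most of that sum was the collagen gene Col1a1 (7432 ± 170 and 5780 ± 284 CPM), so its fall is not a fall of the list as a whole. The endothelial list summed to at most 0.405 CPM in any library. The cardiomyocyte list summed to 1.501 to 1.67 CPM in control and 2.34 to 2.89 CPM in induced libraries, without overlap. Of its genes, Ryr2 had 0, 0 and 1 reads in control and 9, 10 and 10 in induced libraries, Tnni3 was not called (1.52 ± 0.0910 and 2.02 ± 0.207 CPM, edgeR adjusted p 0.144), and Myh6 had 0 reads in 5 of 6 libraries. Actn2 had 8 reads in induced replicate 2 and 0 in every other library. Myl2 went the other way, with 1, 1 and 0 reads in control and 0 in induced libraries. The part of these marker changes in the tetraspanin values was not tested.

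Of the 28 tetraspanins, 25 had enough reads to be tested, 14 were called higher in induced cells and 7 lower, and 4 were not called. Over all genes tested 64.8% were called, 32.6% higher and 32.2% lower, and nothing is read from the family's larger share because the same contrast was in view when the family was chosen. The median log2 fold change of the tested members was 0.28, beside -0.01 over all genes tested. The groups did not overlap for 23 of the 25 members, against 68.6% of all genes. Changes of at least 2-fold were called for Tspan8, Tspan32, Tspan33 and Tspan7 among the higher genes and for Tspan11, Tspan13 and Tspan6 among the lower ones, where 9.29% of all genes were called at least 2-fold higher and 7.83% at least 2-fold lower. Fewer cells transcribing a gene and less RNA per cell cannot be told apart in these bulk libraries.

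**Figure D1:**
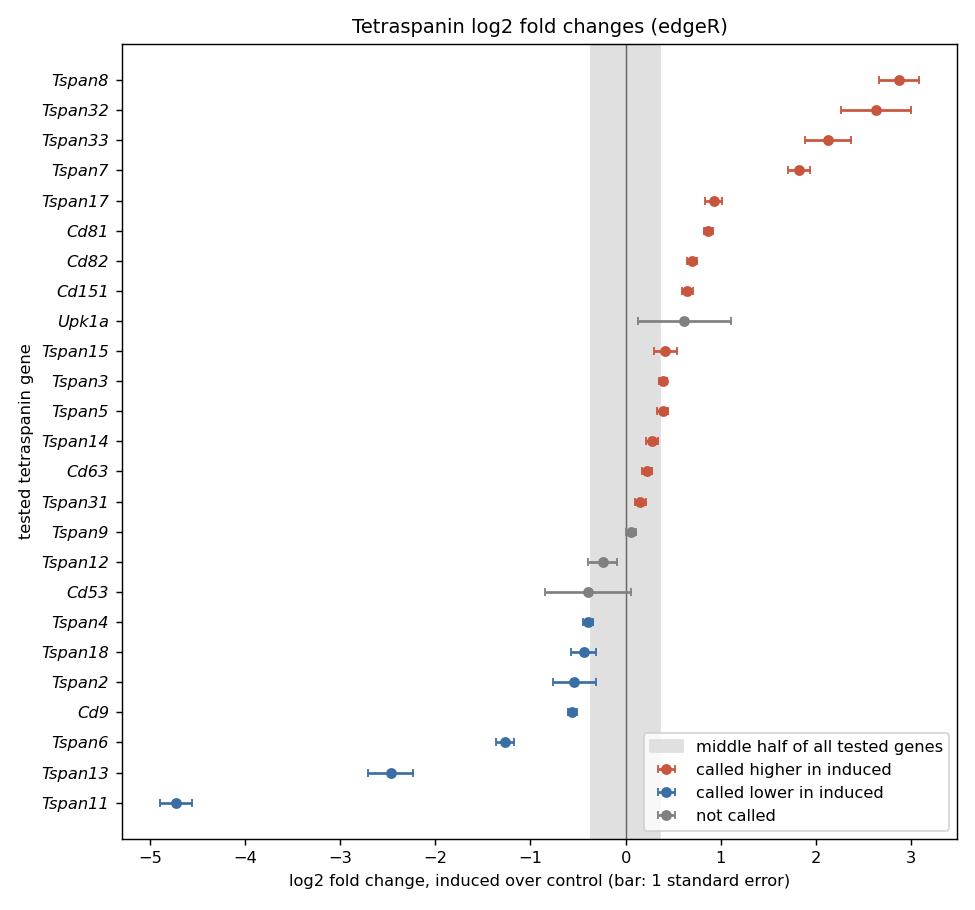
Log2 fold change of induced over control cells for the 25 tested tetraspanins, with 1 standard error, coloured by call; the grey band spans the lower to the upper quartile of all 14246 tested genes (-0.37 to 0.36). Tspan11 lies farthest to the left at -4.73 and Tspan8 farthest to the right at 2.88.

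The family's transcripts were dominated by few genes. By FPKM, Cd63 was the most abundant member in both groups, at 337 ± 7.59 in control and 397 ± 31.9 in induced cells (SD, n = 3), and stood at rank 133 and rank 105 among all genes of the table. In control cells Tspan4, Cd81, Cd151 and Cd9 followed, and the means of Cd151 and Cd9 (98.1 ± 5.54 and 97.4 ± 2.36 FPKM) differed by less than their spread. In induced cells the order was Cd63, Cd81, Tspan4, Cd151 and Cd9, and Tspan4 and Cd151 (156 ± 9.44 and 155 ± 13.0 FPKM) differed by less than their spread. Cd63, Cd81, Tspan4, Cd151, Cd9 and Cd82 together held 84.7% to 85.6% of the family's summed FPKM in every library. That sum was 1083 to 1112 FPKM in control libraries and 1248 to 1403 in induced libraries, without overlap.

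**Figure D2:**
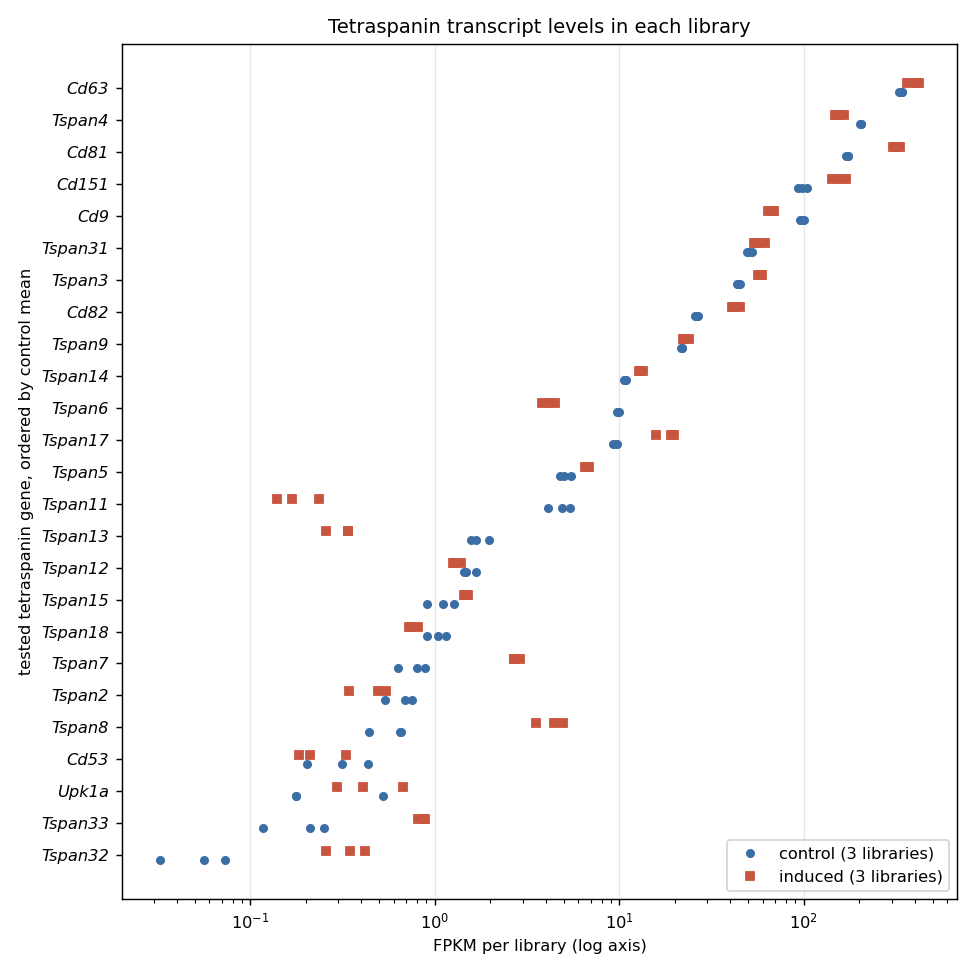
FPKM of the 25 tested tetraspanins in each of the 6 libraries on a log axis, ordered by control mean, with circles for control and squares for induced libraries. Control means run from 0.0535 FPKM for Tspan32 to 337 FPKM for Cd63, and the induced squares of Tspan11 and Tspan13 sit far to the left of their control circles.

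The vesicle-associated tetraspanins did not move as one. Cd81, a partner of immunoglobulin-like EWI proteins, had 491, 504 and 503 CPM in the control libraries and 954, 873 and 913 CPM in the induced libraries. All induced values lie above all control values, and Cd81 was called higher with a log2 fold change of 0.87 (SE 0.04), or 1.83-fold. Cd82, a tetraspanin that restrains cell migration, had 79.1, 81.0 and 77.2 CPM in control and 135, 123 and 127 CPM in induced libraries. It was called higher as well, by 0.70 on the log2 scale (SE 0.05). Cd63, which sits mainly in late endosomes and lysosomes, had 1218, 1266 and 1267 CPM in control libraries against 1557, 1334 and 1496 CPM in induced libraries. Its rise was the smallest of the 3, at 0.23 on the log2 scale (SE 0.05), and induced replicate 2 lay closest to the controls.

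Cd9, a tetraspanin of vesicles and of cell fusion, moved the other way. It had 206, 197 and 199 CPM in control libraries and 140.5, 137 and 131 CPM in induced libraries, with no overlap, and was called lower with a log2 fold change of -0.56 (SE 0.05). Of the exon bases of Cd9, 10.7% are shared with a gene on the opposite strand, and the strand setting of the counting is not given in the sources used here. Because both genes are read in the same library, the ratio of Cd81 to Cd9 does not depend on the scaling between libraries. It was 1.69, 1.82 and 1.79 on the FPKM scale in control libraries and 4.82, 4.52 and 4.94 in induced libraries. The ratio of Cd82 to Cd9 was likewise 0.261 to 0.280 in control libraries and 0.612 to 0.658 in induced libraries. Of the family's summed FPKM, Cd9 held 8.68% to 9.23% in control and 4.82% to 5.36% in induced libraries, and Cd81 held 15.6% to 15.8% and 23.6% to 24.2%.

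**Figure D3:**
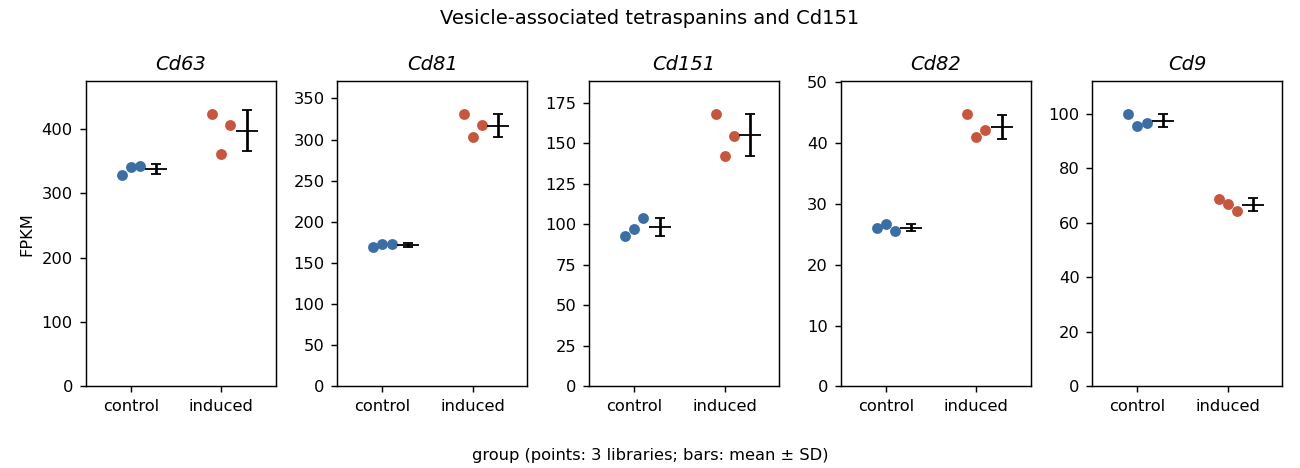
FPKM of Cd63, Cd81, Cd151, Cd82 and Cd9 in each library (points) with mean and SD over 3 libraries per group; each panel starts at 0. The induced points lie above the control points for Cd63, Cd81, Cd151 and Cd82 and below them for Cd9.

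Cd151 and Tspan11 form a group because CD151 is the tetraspanin of laminin-binding integrins and Tspan11 is counted as its near relative. Cd151 had 257, 269.8 and 287 CPM in control libraries and 461, 390.3 and 424 CPM in induced libraries, a call of 0.65 on the log2 scale (SE 0.06). Tspan11 (ENSMUSG00000030351, GRCm38 chromosome 6, 127887589 to 127953977, plus strand) had 437, 515 and 579 reads in the control libraries and 14, 24 and 17 reads in the induced libraries. These correspond to 25.8 ± 3.45 CPM and 0.965 ± 0.267 CPM (SD, n = 3), a log2 fold change of -4.73 (SE 0.17), or 26.5-fold lower. No exon base of Tspan11 is shared with another gene. By FPKM it fell from rank 14 to rank 25 among the 28 tetraspanins.

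The loss of Tspan11 reads did not extend to the 2 nearest tested protein-coding genes on each side. Tspan9, the nearest of them and a tetraspanin of platelets, lies 7.42 kb from Tspan11 on the opposite strand and had 109 ± 0.493 and 114 ± 4.48 CPM (log2 fold change 0.06, SE 0.05, not called, edgeR adjusted p 0.332). Tead4, the next tested gene on that side, was called higher by 0.56 on the log2 scale (SE 0.19). On the other side Parp11 and Ccnd2, 393 and 735 kb away, were called higher by 0.27 and 0.23.

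Tspan8 had the largest rise of the family. This gene, best known from gut epithelium and carcinomas, lies at GRCm38 chromosome 10, 115816832 to 115849893, plus strand (ENSMUSG00000034127). It had 22, 22 and 15 reads in control libraries and 142, 115 and 161 reads in induced libraries, or 0.995 ± 0.211 and 7.34 ± 1.21 CPM (SD, n = 3), a log2 fold change of 2.88 (SE 0.21). No tested protein-coding gene on either side lay closer to it than 384 kb. Zfc3h1, at 384 kb, was not called (0.10 on the log2 scale, edgeR adjusted p 0.149), while Thap2, Ptprb and Cnot2 were called lower by 0.68, 0.32 and 0.17. The list of epithelial markers summed to 0.305 to 1.15 CPM in control and 1.70 to 3.63 CPM in induced libraries. Nearly all of that was Cdh1 (0.705 ± 0.425 and 2.72 ± 0.930 CPM), while Epcam, Krt5, Upk2 and Upk3a had at most 2 reads in any library. The part of epithelial cells in the rise of Tspan8 was not tested.

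The drug 5-aza blocks the methylation of DNA at CG dinucleotides. Therefore the window from 250 bases before to 50 bases after the RefSeq start site (GRCm38.p6) is shown for some members. These are the largest fall, the 2 largest rises and, for contrast, the abundant Cd81. Each CG is in capitals, and the strand of the gene is read 5′ to 3′. The windows are chr6:127887372-127887671 for Tspan11, chr10:115817034-115817333 for Tspan8, chr7:143004796-143005095 for Tspan32 and chr7:143052500-143052799 for Cd81, all on the plus strand.
Tspan11: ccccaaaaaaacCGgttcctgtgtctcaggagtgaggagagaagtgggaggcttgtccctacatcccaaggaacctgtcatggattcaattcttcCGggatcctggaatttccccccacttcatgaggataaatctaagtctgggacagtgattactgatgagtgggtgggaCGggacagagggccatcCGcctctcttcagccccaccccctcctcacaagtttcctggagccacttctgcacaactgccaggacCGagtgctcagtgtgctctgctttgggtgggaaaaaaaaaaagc
Tspan8: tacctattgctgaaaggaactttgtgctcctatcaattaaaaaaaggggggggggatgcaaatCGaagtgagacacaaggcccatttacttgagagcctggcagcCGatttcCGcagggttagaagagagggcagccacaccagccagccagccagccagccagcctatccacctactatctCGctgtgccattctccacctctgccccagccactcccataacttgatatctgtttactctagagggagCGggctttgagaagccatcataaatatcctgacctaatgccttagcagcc
Tspan32: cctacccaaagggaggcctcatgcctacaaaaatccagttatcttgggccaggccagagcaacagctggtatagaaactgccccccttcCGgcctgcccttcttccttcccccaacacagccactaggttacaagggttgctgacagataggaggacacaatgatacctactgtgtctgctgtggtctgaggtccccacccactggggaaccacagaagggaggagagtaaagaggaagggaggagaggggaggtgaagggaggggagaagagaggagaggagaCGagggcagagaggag
Cd81: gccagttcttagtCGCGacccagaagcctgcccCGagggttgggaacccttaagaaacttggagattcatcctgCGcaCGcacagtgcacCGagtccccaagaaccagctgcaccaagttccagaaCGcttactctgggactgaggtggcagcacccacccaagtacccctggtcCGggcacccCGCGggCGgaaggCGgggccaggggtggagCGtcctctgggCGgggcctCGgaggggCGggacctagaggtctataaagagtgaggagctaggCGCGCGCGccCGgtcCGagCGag
Tspan11 and Tspan8, which moved in opposite directions, hold 5 CG each, Tspan32 holds 2 and Cd81 holds 23.

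A window was found for 27 of the 28 members (none for Tspan18), and CG was counted in each. The window nearest to the start of the deposited gene was taken, with no limit on the distance. For Cd63 it begins at 128909095, while the deposited gene begins at 128900989. For Tspan3, on the minus strand, it ends at 56161320, while the deposited gene ends at 56165477. These windows therefore miss the start of the counted gene. The counts ran from 0 in Upk1a to 43 in Tspan5, with a median of 17, beside 21 over the 10321 tested genes with a window and 11 over all 20477 genes with one. At least 1 CG was present in 94.8% of all windows. The 14 members called higher had a median of 20.5 CG and the 6 called lower with a window had 17.5. The median was 5.5 for the 4 not called with a window and 6 for the 3 not tested. Of the 8 tested members with fewer than 10 CG, 4 were called with at least a 2-fold change (Tspan8 and Tspan32 higher, Tspan11 and Tspan6 lower), and of the 16 with at least 10 CG, 3 were (Tspan33 and Tspan7 higher, Tspan13 lower). The same shares over all tested genes were 32.6% and 13.1%. Genes with few CG were also the less abundant ones, with a median of 2.13 FPKM over all tested genes against 6.50 FPKM (1.93 and 18.1 FPKM over the members), and the part of abundance in this difference was not tested. CG in sequence is not methylation, which was not measured here.

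**Figure D4:**
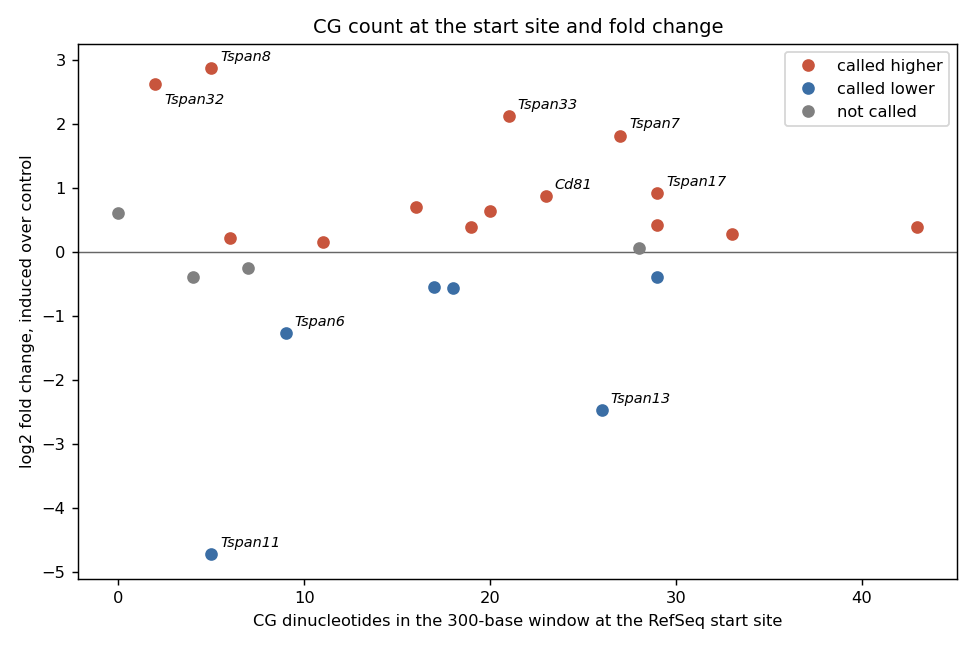
CG dinucleotides in the 300-base window at the RefSeq start site (horizontal) against the log2 fold change of induced over control cells (vertical) for the 24 tested tetraspanins with a window, coloured by call. Tspan11 and Tspan8 share a count of 5 at opposite ends of the vertical axis.

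Of the TspanC8 tetraspanins, which guide ADAM10, all 5 tested members were called higher, against 32.6% of all genes. They were Tspan5, Tspan14, Tspan15, Tspan17 and Tspan33. As for the family, nothing is read from this share, because the same contrast was in view at the choice. Tspan33 had 26, 12 and 22 reads in control libraries and 85, 80 and 88 in induced libraries, a log2 fold change of 2.13 (SE 0.25) with no overlap. Tspan17 had 15.5, 16.0 and 16.1 CPM in control and 32.8, 26.1 and 31.7 CPM in induced libraries, 0.93 on the log2 scale (SE 0.09), with induced replicate 2 the lowest of its group. Without that library its log2 fold change was 1.03, past 2-fold. Tspan15, Tspan5 and Tspan14 rose by 0.42, 0.39 and 0.28 (SE 0.12, 0.06 and 0.06). The most abundant of the subgroup by FPKM was Tspan14 in control cells (10.7 ± 0.113) and Tspan17 in induced cells (18.2 ± 2.21). Tspan10, known from the pigmented eye, was at 0 reads in 5 libraries and at 6 in induced replicate 2, and was not tested.

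Adam10 itself had 183, 178 and 176 CPM in control libraries and 156, 174 and 154 CPM in induced libraries, with induced replicate 2 close to the controls. It was called lower by 0.15 on the log2 scale (SE 0.05, edgeR adjusted p 0.0220). The call was lost without control replicate 1 or 2 or induced replicate 1 or 3 and under limma on FPKM (adjusted p over all alternatives 0.000115 to 0.132). Adam17, a related protease, was not called (0.04, edgeR adjusted p 0.540). Hbegf, an ADAM substrate that also binds CD9, rose from 10.0 ± 0.353 to 27.8 ± 2.91 CPM, 1.48 on the log2 scale (SE 0.09).

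The 3 tetraspanins of blood cells were on the list, and their reads were few. Tspan32 (ENSMUSG00000000244, chromosome 7, 143005046 to 143019644), a tetraspanin of haematopoietic cells, had 9, 4 and 7 reads in control and 30, 41 and 50 reads in induced libraries. It was called higher by 2.63 on the log2 scale (SE 0.37), without overlap. Cd53 had 15, 7 and 11 reads against 6, 11 and 7, was not called (edgeR adjusted p 0.458) and overlapped between groups. The log2 fold change of Cd53 was -0.39 with a standard error of 0.45, so a small difference of that gene could have been missed at this depth. Cd37, with 7 reads in all control libraries and 8 in all induced ones, was not tested. The 9 leukocyte markers summed to 0.607 to 1.63 CPM in control and 0.893 to 1.49 CPM in induced libraries, and Ptprc, Cd52, Tyrobp, Itgam and Cd3e had 0 reads in all 6. The opposite-strand gene Tspan32os shares 4.35% of the exon bases of Tspan32.

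Both X-linked members changed by over 2-fold, in opposite directions. Tspan7, a membrane protein of neurons whose loss impairs cognition, had 125, 88 and 114 reads in control libraries and 355, 391 and 364 reads in induced libraries, a log2 fold change of 1.82 (SE 0.12). Tspan6, which dampens antiviral signaling and lies 123294 kb away on the same chromosome, had 20.05, 20.6 and 20.7 CPM in control and 7.80, 9.25 and 8.43 CPM in induced libraries, -1.27 on the log2 scale (SE 0.10). Neither gene's groups overlap. Tspan13, on chromosome 12, fell further, from 82, 96 and 78 reads to 12, 16 and 16 reads (log2 fold change -2.47, SE 0.24).

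The remaining members moved less. Tspan4, known as a marker of migrasomes (vesicles left behind by moving cells), had 441, 449.8 and 448 CPM in control and 361, 321 and 337 CPM in induced libraries and was called lower by 0.39 on the log2 scale (SE 0.05); 13.4% of its exon bases are shared with Chid1 on the opposite strand. Tspan3, a partner of the tight junction protein claudin-11, rose by 0.39 (SE 0.05), from 189.8 ± 3.42 to 249 ± 6.18 CPM. Tspan18, which governs the calcium channel ORAI1 in endothelial cells, was called lower by 0.44 (SE 0.13), at 8.47 ± 0.967 and 6.23 ± 0.333 CPM. Tspan12, a coreceptor of FZD4 in norrin signalling, had 5.08 ± 0.413 and 4.30 ± 0.229 CPM and was not called (-0.24, edgeR adjusted p 0.178). Upk1a, a uroplakin of the bladder lining, summed to 25 control reads and 37 induced reads and was not called (edgeR adjusted p 0.282), and Tspan1 had 2 reads and 1 read.

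Calls of 2 of these members depended on single libraries. Tspan2, a tetraspanin of oligodendrocytes, had 51, 65 and 72 reads in control and 44, 49 and 31 reads in induced libraries (log2 fold change -0.54, SE 0.23, edgeR adjusted p 0.0456). The call was lost without control replicate 2 or 3, without induced replicate 1 or 3, with the replicate block, and under DESeq2 and limma on FPKM (adjusted p over all alternatives 0.0223 to 0.203). Tspan31, which is amplified in sarcomas, had 116, 109 and 112 CPM in control and 134, 118 and 123 CPM in induced libraries (0.15, SE 0.06, edgeR adjusted p 0.0220). Its call was lost without control replicate 2 or 3, without induced replicate 1, under library totals alone and under limma on log2(FPKM + 0.1) (adjusted p over all alternatives 0.000355 to 0.115). Of the exon bases of Tspan31, 29.2% are shared with Cdk4 on the opposite strand.

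Of the members on the same chromosome, 4 pairs lie within 100 kb of each other, and in 1 of them both genes were called in the same direction. Cd151 and Tspan4, 3.77 kb apart on chromosome 7, were called in opposite directions (0.65 and -0.39 on the log2 scale). In each library the FPKM of Cd151 was 0.463, 0.477 and 0.509 times that of Tspan4 in control cells and 1.01, 0.967 and 0.999 times in induced cells. Tspan18 and Cd82, 84.6 kb apart on chromosome 2, were also called in opposite directions (-0.44 and 0.70). Tspan11 fell beside the uncalled Tspan9, as described, and Tspan32 and Cd81, 33.1 kb apart on chromosome 7, both rose (2.63 and 0.87).

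**Figure D5:**
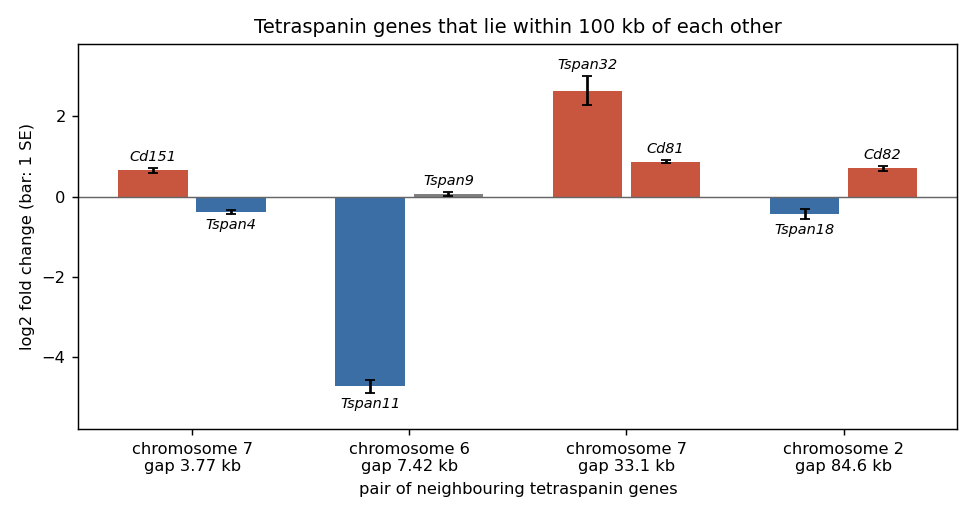
Log2 fold change with 1 standard error for the 4 pairs of tetraspanin genes within 100 kb of each other, red for called higher, blue for called lower and grey for not called, with the gap between the genes under each pair. Only Tspan32 and Cd81 were called in the same direction.

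Of 23 listed partners, the proteins that tetraspanins gather, 16 were tested by their transcripts. In induced cells 11 were called higher (among them Upk1b, a uroplakin that is itself a tetraspanin) and 2 lower, with a median log2 fold change of 0.59. Over all genes 32.6% were called higher and 32.2% lower. The list was drawn up with earlier results of these data known, so its share supports nothing about partners in general. The integrin chains that CD151 binds did not share a direction. Itga7, a laminin receptor of muscle, rose from 8.67 ± 0.935 to 139 ± 3.39 CPM (log2 fold change 4.00, SE 0.07), Itga3 from 83.6 ± 0.597 to 162 ± 8.94 CPM (0.96), and their common partner Itgb1 from 793 ± 3.45 to 1083 ± 45.9 CPM (0.45). Itga6 fell from 9.54 ± 0.883 to 3.18 ± 0.252 CPM (-1.59, SE 0.14), and Itgb4 was not called (-0.09, edgeR adjusted p 0.691). Fzd4, the receptor that TSPAN12 assists, rose from 20.9 ± 0.985 to 81.6 ± 1.82 CPM (1.97, SE 0.06), while 1 read of its ligand Ndp was found per group.

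Of the EWI family, the closest partners of CD9 and CD81, Ptgfrn and Igsf3 rose by 0.39 and 0.72 on the log2 scale. Igsf8 was not called (0.11, edgeR adjusted p 0.0618), and was called higher under DESeq2, median-ratio size factors and without control replicate 3 or induced replicate 2 or 3 (adjusted p over all alternatives 0.0101 to 0.242). Orai1, the channel that TSPAN18 governs, rose by 1.28.

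The naming rule leaves out 3 genes that are tetraspanins by sequence. Upk1b, a uroplakin, had 114, 117 and 121 CPM in control libraries and 783, 750.1 and 762 CPM in induced libraries, a log2 fold change of 2.71 (SE 0.05). At 366 ± 8.54 FPKM in induced cells it stood between Cd63 and Cd81. Among other uroplakins, Upk3a had 0 reads in all 6 libraries and Upk2 had 2 reads in 1 of them. Upk3b, also a uroplakin and counted here among the cardiosphere and epicardial markers, rose from 254 ± 0.673 to 941 ± 62.9 CPM. Rom1, of photoreceptors, was not called (-0.18, edgeR adjusted p 0.186; called lower without induced replicate 1, range over alternatives 0.0329 to 0.454), and Prph2 had 0 reads.

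The machinery that forms vesicles moved in part. Of 26 genes for multivesicular bodies and exosome release, 24 were tested, 9 were called higher and 4 lower (54.2%, against 64.8% of all genes), with a median log2 fold change of 0.10. Smpd3, the neutral sphingomyelinase of vesicle budding, rose from 143 ± 2.35 to 478 ± 22.7 CPM (1.74, SE 0.05). Rab31 and Rab27b, which sort and dock vesicle-bearing endosomes, rose by 0.81 and 0.58, and Rab7 and Chmp2a by 0.55 and 0.53. Sdc1, a syndecan that enters vesicles through syntenin, and Arf6 were called lower by 0.92 and 0.66. Pdcd6ip, which encodes the vesicle protein ALIX, had 187 ± 3.95 and 192 ± 8.88 CPM and was not called (0.03, edgeR adjusted p 0.581). Hgs is entered as 2 overlapping gene models, and only the reads of ENSMUSG00000116045 were looked up, which were 0 in every library. Vps25 shares 67.2% of its exon bases with another gene on its strand. Neither Hgs nor Vps25 was tested.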

How the data were processed

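Total RNA was sequenced from 3 control and 3 induced samples with the NEBNext Ultra RNA kit; the strand setting of the counting is not given in the sources used here. The authors deposited raw read counts per gene and library and the FPKM values made from them, in a table of the whole series. The submitters' processing notes list HISAT2 2.0.5, featureCounts 1.5.0-p3, DESeq2 1.16.1 and the mm10 build. The deposited fold changes, p-values, group means and Gene Ontology tables hold the authors' own comparison and were not used. Coordinates are those of the deposited table, and all 28 members have the same coordinates in GENCODE M21 (GRCm38).

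The counts were fitted with edgeR 4.0.16 (R 4.3.3), using filterByExpr (minimum count 10, minimum total 15), TMM scaling, a two-sided quasi-likelihood test of induced against control cells over all 14246 genes and Benjamini-Hochberg adjustment at 0.05. Means are ± SD over 3 libraries, and standard errors are the log2 fold change over the square root of its F statistic. FPKM served to compare levels between genes and in an alternative test. No libraries were merged, since every pair within a group differed beyond counting noise (chi-square over its degrees of freedom, 2.56 to 8.91). The largest values, 8.91 and 8.04, came from the induced pairs that hold induced replicate 2. The remaining induced pair gave 4.68, and the control pairs gave 2.56 to 3.40. Exon overlap was taken from GENCODE M21 and start-site windows from RefSeq. The fit was also run on simulated data in which far fewer genes changed than were called here. That run does not measure the error rate of the fit in these libraries.

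The members, gene lists and tests were chosen with earlier results of these data known. Named in full were Cd9, Cd63, Cd81, Cd82, Cd151 and the 8 called members with the largest change whose groups did not overlap and reached 1 CPM in either group. The 5 largest called changes of each other list, Adam10 and Itgb1, the 2 nearest tested genes on each side of the largest rise and fall, and Upk1b, Prph2 and Rom1 were also named; other genes were named after their values were seen. As alternatives, each library was left out, the replicate number was added as a block, TMM was replaced by median-ratio size factors or by library totals, the filter was dropped or tightened (mean count 10, 1 CPM in 3 libraries), and the test was replaced by DESeq2 1.42.0 or by limma 3.58.1 on FPKM with 1 or 0.1 added before log2. Intervals for counting error were not computed, and a gene at 0 reads may hold up to 3 counts per library.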

Additional observations from a re-analysis of the deposited data

How the results depend on the processing

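Under all alternatives the counts of tetraspanins called higher (14) and lower (7) stayed within 1.5 times these values, and the median change of the tested members lay on the log2 scale between 0.23 and 0.29. Without a filter the 3 low members entered the test. Under limma on log2(FPKM + 1), where the added 1 shrinks the change of low genes, 2 tetraspanins were called at least 2-fold higher in place of 4, and the log2 fold changes of Tspan11 and Tspan32 were -2.29 and 0.35. The number of partners called lower was 1 in place of 2 under limma on log2(FPKM + 1) and on log2(FPKM + 0.1), and 1 to 2 on leaving out one library at a time, as the call of Adam10 was lost. Of 544 values of 39 named genes under alternatives, 0 changed sign, 19 lost the call (Tspan2, Tspan31 and Adam10) and 6 gained one (Igsf8 and Rom1).

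What libraries of the same replicate number share beyond that number is not known. Their deviations from the group means correlated at -0.00, -0.02 and 0.03, which cannot settle whether they were prepared together. With the replicate block 14 tetraspanins were called higher and 6 lower, 11 and 2 partners, and 8 and 4 genes of the vesicle machinery, and Tspan2 lost its call (log2 fold change -0.54, edgeR adjusted p 0.0514). Depth limits Tspan1, Tspan10 and Cd37, which had at most 8 reads per group, and Cd53 and Upk1a.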
